A study of Mus musculus with 2 samples.

Results

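A group of 10 imprinted genes was followed through single-cell RNA libraries of newborn mouse skin. They were the noncoding RNA genes H19 and Meg3, the growth factor gene Igf2 and its clearance receptor gene Igf2r, and Dlk1, Mest, Peg3, Cdkn1c, Grb10 and Plagl1. All 10 are expressed from 1 parental copy in many mouse tissues, and all 10 symbols were found among the 32285 genes of the deposited matrices. The set was selected on values of these same libraries, in which H19 had been seen to be far lower in the epidermis of the induced library, so the H19 difference there is a description and supports nothing by itself. The other 9 genes were measured in the same contrast, and their values too are given without a test.

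The control library came from dorsal skin of wild-type mice on postnatal day 3, and the other library from dorsal skin of the genotype miR-200b induced on the same day. Both carried the treatment label Dox, so the controls had doxycycline too. The labels name neither the construct, nor the promoter that drives the induction, nor the number of animals behind a library. Epidermis and dermis were dissociated apart and pooled in a ratio of 30 to 70 before 10x Genomics 3′ capture. There was 1 library per group and no replicate, so every difference below lies between these libraries, intervals cover counting error only, and no test between genotypes was possible.

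Genomic imprinting marks a gene in the egg or the sperm so that later only the maternal or the paternal copy is read. Paternally expressed genes such as Igf2, Dlk1, Mest, Peg3 and Plagl1 are known mostly as promoters of fetal growth, and maternally expressed genes such as H19, Cdkn1c, Grb10 and Igf2r mostly as brakes on it. Most of them are abundant in fetal tissue and decline after birth, and H19 and Igf2 share enhancers and a common imprinting control region on chromosome 7.

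The positions below are from GENCODE on GRCm38, the assembly that mm10 names. H19 (ENSMUSG00000000031) lies at chr7:142575529-142578143 on the minus strand and Igf2 (ENSMUSG00000048583) at chr7:142650766-142666816 on the minus strand. Cdkn1c lies on the same chromosome at chr7:143458339-143461050, and Peg3 at chr7:6703892-6730431, both on the minus strand. Dlk1 (chr12:109452823-109463336) and Meg3 (chr12:109541001-109571726) are neighbours on the plus strand. Mest lies at chr6:30723547-30748465, Plagl1 at chr10:13060504-13131694, Grb10 at chr11:11930508-12038683 and Igf2r at chr17:12682406-12769664. Exons of Igf2, Mest and Cdkn1c overlap exons of the opposite-strand genes Igf2os, Copg2 and Gm44732, which are also in the matrices. Whether the counting used strand is not given in the sources used here, so reads of these pairs may not be fully told apart.

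The mature microRNAs are shown because the study induced one of them and because H19 is itself the precursor of another. A microRNA pairs with its targets mainly through its seed, bases 2 to 8, which is in capitals. The sequences are RefSeq's, on GRCm38.p6.
mmu-miR-200b-3p: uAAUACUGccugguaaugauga
mmu-miR-200c-3p: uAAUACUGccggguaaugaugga
mmu-miR-429-3p: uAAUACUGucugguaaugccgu
mmu-miR-675-5p: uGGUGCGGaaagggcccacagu
mmu-miR-675-3p: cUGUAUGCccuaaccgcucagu
The first 3 share the seed AAUACUG, and miR-200b lies at chr4:156055685-156055706. The 2 arms of miR-675 lie inside an exon of H19, at chr7:142577112-142577133 and chr7:142577078-142577099, and have other seeds. Mature microRNAs are not read by these 3′ libraries, so none of the values below measures them.

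The match to the miR-200b seed, CAGTATT, was searched on the sense strand of the longest transcript of H19 and of Meg3 and in the longest 3′ untranslated region (UTR) of the other 8 genes. It was found in Igf2r and Meg3 only. The matches are in capitals, with 10 bases on each side.
Igf2r: tagtgagctgCAGTATTctattcttcg
Meg3, first match: gtgcagaaacCAGTATTgaaatggaaa
Meg3, second match: agaaagcctaCAGTATTttatcttgtc
The Igf2r match stands at bases 571 to 577 of a 3′ UTR of 1304 bases, and 13.9% of 20903 genes with a 3′ UTR hold such a match. The Meg3 matches stand at bases 3186 to 3192 and 8231 to 8237 of a transcript of 14548 bases. Of 17414 genes of long noncoding RNAs, 7.66% hold one, but 62.5% of the 8 genes with a transcript of similar length do. H19 has no match in its 2286 bases, nor have the 3′ UTRs of Igf2, Dlk1, Mest, Peg3, Cdkn1c, Grb10 and Plagl1. A match is a string of letters and was not tested as a site of pairing.

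After filtering, the control library kept 4837 cells with a median depth of 14607 unique molecular identifiers (UMIs), and the induced library 4901 cells with a median of 17918. The libraries shared 74 of their 9072 and 9114 barcodes, 8 of them among the kept cells. Classes were rebuilt from marker genes, so "-like" is meant with every class name. Most epithelial clusters came from 1 library. Control basal cells lay almost wholly in 1 cluster of 462 cells, and induced basal cells in a cluster of 773 cells and in one of 238 cells led by the stress genes Nfkbia, Atf3 and Irf1. Spinous cells lay in 2 control clusters of 246 and 199 cells and in 1 induced cluster of 325 cells. Outer root sheath cells lay mainly in clusters of 447 and 404 control cells and of 401 and 384 induced cells. The members and the other listed genes were kept out of the clustering. Even so, H19 was the gene with the largest fold in the control basal cluster.

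H19, a noncoding RNA that is processed to miR-675 and is known as a brake on fetal growth, was an RNA of the basal layer in the control library. Its level there was 1331 CPM, or UMIs scaled to 1000000 UMIs of the class (1307 to 1356, from 11271 UMIs in 470 cells). Spinous cells followed at 370.2 CPM (360.1 to 380.4) and endothelial cells at 337.8 CPM (302.9 to 375.5), levels whose intervals overlap. Fibroblasts stood at 204.4 CPM and the upper follicle at 54.4 CPM. All other control classes were far below. Outer root sheath had 15.03 CPM, inner root sheath and shaft 12.9 CPM, sebaceous gland 7.32 CPM and melanocytes 5.02 CPM. Dermal papilla cells, which nourish the follicle, had no H19 UMI in 41 control cells and none in 85 induced cells, where 3 UMIs would have been 11.5 and 14.3 CPM.

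The order was another one in the induced library. Endothelial cells led with 627.8 CPM (575.9 to 683.1), fibroblasts followed with 165.4 CPM (148.3 to 184), and basal cells came after them with 56.7 CPM (53.8 to 59.8). Upper follicle cells, at 49.2 CPM (39.05 to 61.3), did not differ from basal cells beyond counting error. Spinous cells had 10.6 CPM and outer root sheath cells 4.44 CPM. The map of levels by class shows H19 at over 20 times the induced level in control basal and spinous epidermis, while in endothelial cells and over all fibroblasts the libraries differed by under 2-fold. The main fibroblast cluster alone had 204 and 90.3 CPM. Pericytes and smooth muscle cells held 1 and 9 H19 UMIs, and granular cells 1 and 17, from 10 control and 131 induced cells.

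**Figure D1:**
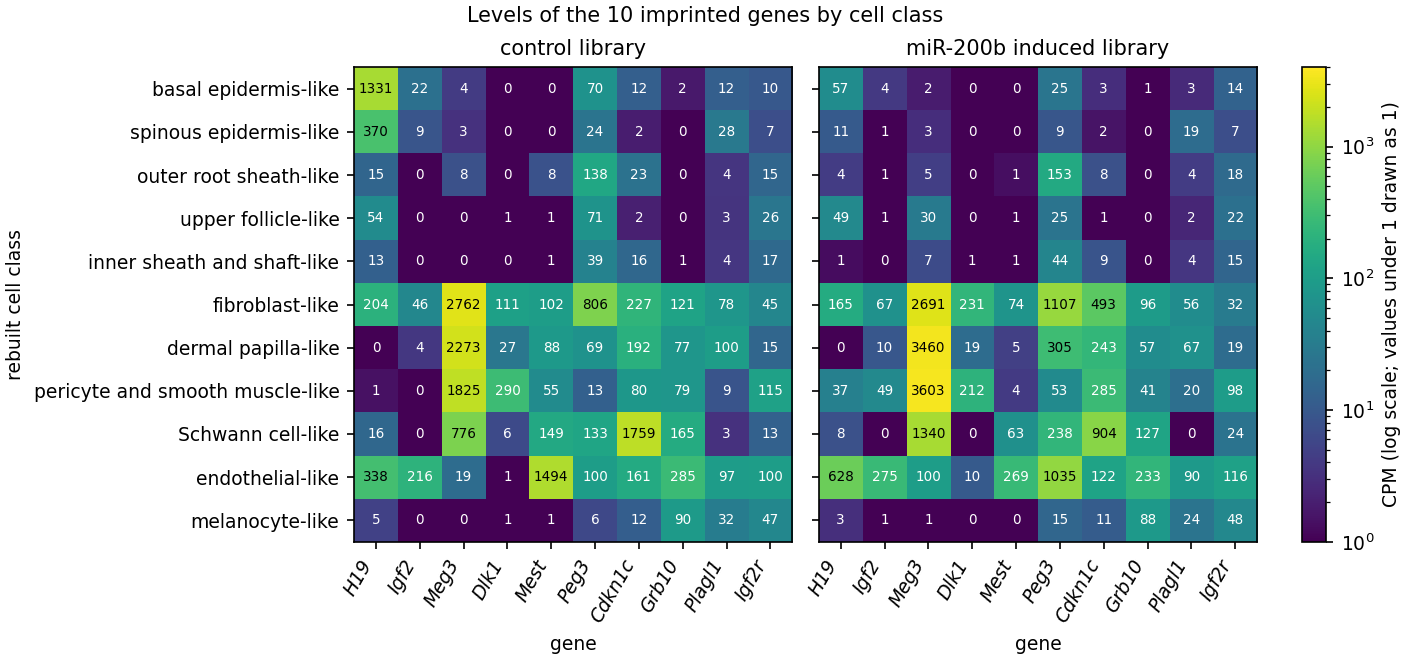
Level of each of the 10 genes (columns) in each rebuilt cell class (rows) in the control library (left) and the miR-200b induced library (right). Numbers and colours give CPM on a log colour scale, with values under 1 drawn as 1. H19 stands at 1331 CPM in control and 56.7 CPM in induced basal epidermis, while Meg3 is highest in the fibroblast and other mesenchymal rows of both panels.

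In basal epidermis H19 was 23.5-fold lower in the induced library (22.2 to 24.8), with 1401 UMIs in 1011 cells. In spinous epidermis it was 34.9-fold lower (29.7 to 41.3). That value rests on the control cluster of 246 cells, which held 4971 of the 5170 control UMIs and to which no induced cell belonged. Krt16 and Clca3a2, among its leading genes, also led an unnamed induced cluster of 309 cells. H19 stood at 30.7 CPM in that induced cluster, which is outside the named epidermal classes. Between the spinous clusters that carry Krt79, with 200 control and 340 induced cells, a comparison chosen after the values were seen, H19 was 28.6 and 10.6 CPM, 2.69-fold lower (2.17 to 3.35). Krt79 is on the marker list of the upper follicle, as is Defb6, a leading gene of the control cluster of this pair. The named spinous class may therefore hold upper follicle cells, above all in the induced library, and their part in its ratios was not tested. Over all epidermal cells, 926 control and 1482 induced, it was 21.2-fold lower (20.1 to 22.3). Over all epithelial cells the difference was 9.97-fold (9.57 to 10.4). The same RNA did not differ beyond counting error in the upper follicle, 54.4 against 49.2 CPM (78 and 80 UMIs). Over all non-epithelial cells it stood at 157.4 and 157.7 CPM, which pools a higher endothelial with a lower fibroblast level. These H19 ratios are what the genes were chosen by, and are given as a description.

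The low level was a matter of most cells and not of a few. The median control basal cell had 965.2 H19 CPM and the 90th percentile 2924 CPM, whereas the median induced basal cell had 0 and the 90th percentile 171.4 CPM. The highest control cell reached 6006 CPM and the highest induced cell 1321 CPM. With every cell reduced at random to 2000 UMIs, an H19 UMI was found in 67.8% of 466 basal cells of the control (63.4 to 72.0) and in 9.94% of 986 basal cells of the induced library (8.14 to 12.0). Without thinning the shares were 86.0% and 35.6%, at median depths of 18037.5 and 24874 UMIs. The comparison class was melanocytes, in which 1.25% of 80 control and 0.851% of 235 induced thinned cells had one, at median depths of 10158 and 7522.5 UMIs. Both basal shares lay above those of melanocytes.

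RNA set free from fibroblasts was measured beside it. In control basal cells Col1a1 stood at 0.0867% and Col3a1 at 0.103% of their fibroblast levels, and Meg3 at 0.154%. H19 stood at 651.2% of its fibroblast level there and at 34.3% in induced basal cells. Igf2 stood at 47.2% and 5.83%. Of the 6 fibroblast genes followed, Sparc had the highest share, 4.90% in control and 10.3% in induced basal cells, and the other 5 were under 0.5%. H19 lay above all 6 in both libraries, and Igf2 above all 6 in the control library but below Sparc in the induced one. Sparc was, however, among the leading genes of the main basal cluster of each library, so its share there need not be free RNA. Igf2 lay above the other 5 in both libraries.

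The H19 gradient could also be seen without the class names, among the cells of the epithelial clusters. Each epithelial cell was placed by the share of epidermal markers among its epidermal and follicle marker UMIs. Where that share was 95 to 100%, H19 stood at 961.8 CPM (948.5 to 975.3) in 834 control cells and at 54.8 CPM (52.3 to 57.5) in 963 induced cells. At 90 to 95% the levels were 95.05 and 38.3 CPM, and at 80 to 90% 23.2 and 16.0 CPM. Where the share was under 80%, they lay between 10.7 and 15.6 CPM in the control and between 4.61 and 7.05 CPM in the induced library. H19 was lower in the induced library in each of the 6 ranges, and the gap was widest in the most epidermal cells. In melanocytes, the comparison class, H19 stood at 5.02 CPM in the control and 3.075 CPM in the induced library. The ranges under 80% were not far above that, and the part of H19 RNA set free from epidermal cells in them was not tested. The epidermal markers include Krt15, whose level in basal cells differed between the libraries, so a range need not hold like cells in both.

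**Figure D2:**
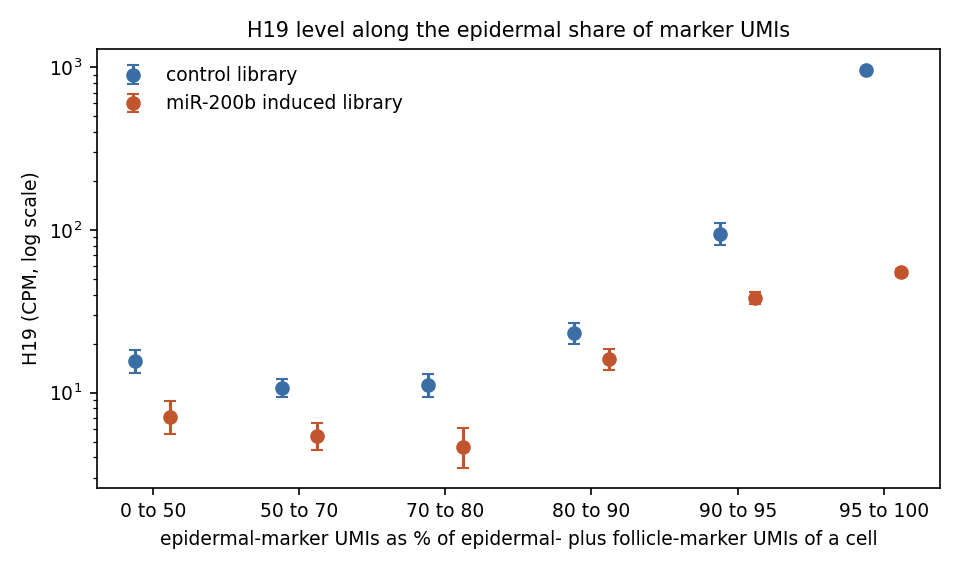
H19 level (CPM, log scale) in epithelial cells placed by the percentage of epidermal-marker UMIs among their epidermal- and follicle-marker UMIs, for the control and induced libraries. Points are summed levels and bars exact 95% Poisson intervals. The libraries differ in every range, and the gap is widest at 95 to 100%, where the control level is 961.8 CPM and the induced level 54.8 CPM.

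Within the control epidermis H19 was lower in spinous than in basal clusters. The basal cluster stood at 1335 CPM, the spinous cluster led by Clca3a2 and Krt1 at 710.3 CPM and the other spinous cluster, led by Krt77 and Calm4, at 28.6 CPM. An unnamed control cluster led by histone and mitotic genes held 528.7 CPM. In the induced library the cluster with the highest epithelial level was also a mitotic one without a name, at 104 CPM. The stress-gene cluster of basal cells stood at 78.0 CPM and the larger basal cluster at 50.4 CPM, so the stress-gene cluster was not the lower of the pair. The induced spinous cluster had 10.9 CPM. A shallow cluster without a name, of 25 control and 216 induced cells and led by Col3a1, held 257.1 and 67.2 CPM.

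Other markers moved with the basal and spinous classes. The 8 basal markers summed to 49248 CPM in control and 26391 CPM in induced basal cells, all 8 with UMIs in both. Krt15, a basal keratin, stood at 8631 CPM in the control and 230 CPM in the induced cells, while Col17a1 (600.1 and 579.7 CPM), Itgb4 (132.3 and 134.5 CPM) and Trp63 (190.4 and 184.4 CPM) were close. In spinous cells the basal markers summed to 20418 CPM in the control and 2605 CPM in the induced library, so the control spinous class held more basal RNA. The part of these differences in the H19 values was not tested.

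Igf2, the fetal growth factor whose enhancers H19 shares, followed H19 at a low level in the epidermis. Control basal cells held 183 Igf2 UMIs, or 21.6 CPM (18.6 to 25.0), and induced ones 97 UMIs, or 3.93 CPM (3.18 to 4.79). That is a 5.50-fold lower level (4.28 to 7.12). In spinous cells the levels were 8.88 CPM (124 UMIs) and 0.838 CPM (12 UMIs), 10.6-fold lower (5.86 to 21.1), and between the clusters with Krt79 3.26-fold lower (1.5 to 7.35). Over all fibroblasts Igf2 had 45.8 CPM in the control and 67.3 CPM in the induced library, but 45.1 and 25.3 CPM without the cluster with adipocyte markers described below. Endothelial cells had 216.3 and 274.9 CPM. In outer root sheath, upper follicle, melanocytes and sebaceous gland it was at or near 0 in both libraries, with at most 9 UMIs.

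Peg3, a paternally expressed zinc finger gene tied to fetal growth and maternal behaviour, was the only other member above the level needed for a call in basal cells. That level was a mean of 20 CPM over both libraries, and a gene counted as lower or higher when it differed by at least 2-fold with 5 CPM added to each side. Peg3 stood at 69.7 CPM in control basal cells (64.2 to 75.5, 590 UMIs) and at 25.3 CPM in induced ones (23.4 to 27.4, 625 UMIs), 2.75-fold lower (2.46 to 3.09). H19 and Peg3 were both lower, so 2 of 2 members at level were lower and none higher. Of all 5448 genes at level in basal cells, 3.32% were lower and 2.07% higher. The H19 call used the contrast of the rule, so nothing is read from that count.

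Below that level, Cdkn1c and Plagl1 were lower in induced basal cells and Igf2r was higher. Cdkn1c, which encodes the cyclin-dependent kinase inhibitor p57, had 12.3 CPM in the control (104 UMIs) and 2.96 CPM in the induced library (73 UMIs), 4.16-fold lower (3.05 to 5.69). Plagl1, a zinc finger regulator of other imprinted genes, had 12.3 CPM (104 UMIs) and 2.71 CPM (67 UMIs), 4.53-fold lower (3.30 to 6.25). Igf2r, the receptor that carries IGF2 to lysosomes, went from 9.69 CPM (82 UMIs) to 13.7 CPM (339 UMIs), 1.42-fold higher (1.11 to 1.83). The 4 remaining members were scarce. Meg3 had 36 and 46 UMIs, Grb10 15 and 22, Dlk1 3 and 2, and Mest 2 and 5. With a level of 5 CPM in place of 20 CPM, 5 of 6 members were lower in basal cells, and 3.25% of all 9259 genes at that level. Of these, Igf2, Cdkn1c and Plagl1 reached the level only through the control library and were under 5 CPM in the induced one. H19 is the gene of the rule, so nothing is read from that count either.

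In spinous cells 2 members reached the level of 20 CPM, H19 and Plagl1, and 1 was lower. Of 4849 genes there, 4.48% were lower and 2.78% higher. Plagl1 stood at 28.5 CPM (398 UMIs) in the control and 18.6 CPM (266 UMIs) in the induced library, 1.53-fold lower (1.31 to 1.80). Between the spinous clusters with Krt79 it was 18.8 and 18.6 CPM. Its highest epithelial cluster was the control spinous one at 38.15 CPM, and in the induced library an unnamed cluster led by Krt16 at 19.5 CPM. Peg3 went from 24.0 to 9.14 CPM over the class, 2.62-fold lower (2.14 to 3.24), and stood at 14.4 and 9.14 CPM between the clusters with Krt79. Cdkn1c (27 and 22 UMIs) and Igf2r (103 and 104 UMIs) did not differ beyond counting error.

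Over all epithelial cells, which needs no class names, 2 members reached 20 CPM and 1, H19, was lower. None was higher, against 4.26% lower and 2.25% higher among 5864 genes. Peg3 went from 83.2 to 52.8 CPM, 1.58-fold lower (1.52 to 1.63). Cdkn1c went from 15.05 CPM (1169 UMIs) to 3.84 CPM (380 UMIs), 3.92-fold lower (3.49 to 4.41). Igf2r had 10.7 and 12.6 CPM, Plagl1 9.03 and 7.39 CPM, and Meg3 3.58 and 4.56 CPM. The pool mixes classes whose numbers differed, with 926 control and 1482 induced epidermal cells and 147 and 3 sebaceous gland cells. Peg3 had 40.3 and 16.6 CPM in epidermal cells but 137.8 and 153.2 CPM in the outer root sheath. The part of that mix in the pooled ratios was not tested. The median gene at level lay at -0.11 on the log2 scale, so the whole profile was slightly shifted towards the control library.

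**Figure D3:**
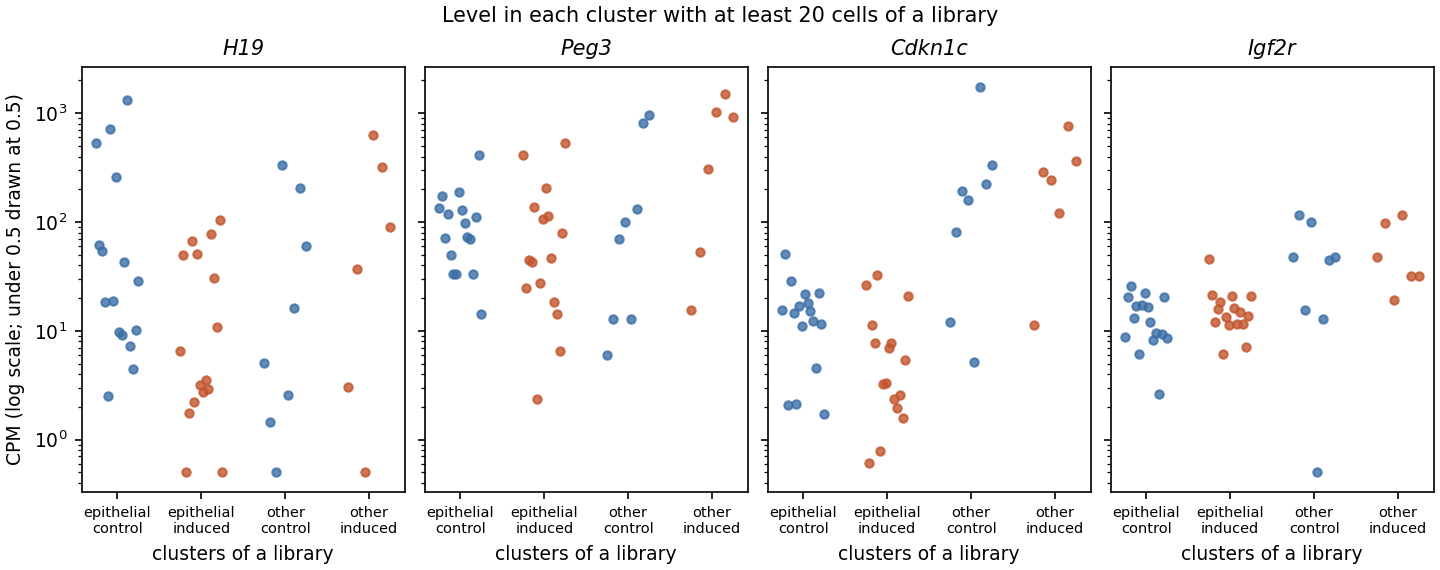
Level (CPM, log scale, values under 0.5 drawn at 0.5) of H19, Peg3, Cdkn1c and Igf2r in every cluster with at least 20 cells of a library, with epithelial clusters and other clusters of each library apart. The highest epithelial H19 cluster has 1335 CPM in the control and 104 CPM in the induced library, whereas Igf2r spans 2.63 to 25.8 CPM in control and 6.15 to 45.9 CPM in induced epithelial clusters.

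In the hair follicle the members behaved gene by gene. Outer root sheath cells, 1083 control and 852 induced, held 1 member at 20 CPM. It was Peg3, with 137.8 CPM (1815 UMIs) and 153.2 CPM (2487 UMIs), and it passed in neither direction. Of 6098 genes there, 3.13% were lower and 2.82% higher. The ratio of Peg3, 1.11-fold higher (1.05 to 1.18), was small here and had the other sign with coarser clustering (log2 -0.06 with 5 CPM added). Cdkn1c was lower in this class too, 22.5 CPM (297 UMIs) against 7.95 CPM (129 UMIs), 2.84-fold (2.30 to 3.52), and 2.47-fold (1.98 to 3.101) without the cluster led by Nppc.

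Mest, a paternally expressed gene for an enzyme of the hydrolase fold, had 8.12 CPM (107 UMIs) in control and 1.35 CPM (22 UMIs) in induced outer root sheath. There, 5 cells held 43.9% of the control and 50% of the induced UMIs, so the Mest level rests on few cells. An outer root sheath cluster led by Nppc, Sfrp1 and Scrg1, with 149 control and 23 induced cells, held 72 of the 107 control UMIs at 52.6 CPM. Without it Mest stood at 2.96 and 1.18 CPM, 2.51-fold lower (1.40 to 4.64). H19 went from 15.03 CPM (198 UMIs) to 4.44 CPM (72 UMIs), 3.39-fold lower (2.57 to 4.50). Without the cluster led by Nppc, which held 85 of the 198 control UMIs, H19 had 9.57 and 4.42 CPM, 2.17-fold lower (1.60 to 2.96). Melanocytes had 5.02 and 3.075 H19 CPM, and the part of free RNA in the outer root sheath values was not tested. Igf2r had 15.3 and 17.8 CPM and Plagl1 3.57 and 4.44 CPM, with intervals of the ratio that include 1.

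The upper follicle class was a single cluster of 96 control and 78 induced cells, so its values do not rest on different clusters. H19, Peg3 and Igf2r reached 20 CPM, and 1 of these 3, Peg3, was lower, against 3.77% lower and 4.34% higher among 5623 genes. Peg3 stood at 71.1 CPM (102 UMIs) in the control and 24.6 CPM (40 UMIs) in the induced library, 2.89-fold lower (1.98 to 4.27). Meg3, a noncoding RNA read from the maternal copy, had no UMI in the control cells and 49 UMIs, or 30.2 CPM, in the induced ones. With 3 UMIs as the floor of the control class, 2.09 CPM, the induced level is the higher, and the mean over both libraries was under the level for a call. Inner root sheath and shaft cells had Peg3 at 39.2 and 43.8 CPM, Cdkn1c at 16.2 and 8.59 CPM, and H19 at 12.9 and 1.32 CPM (70 and 6 UMIs).

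**Figure D4:**
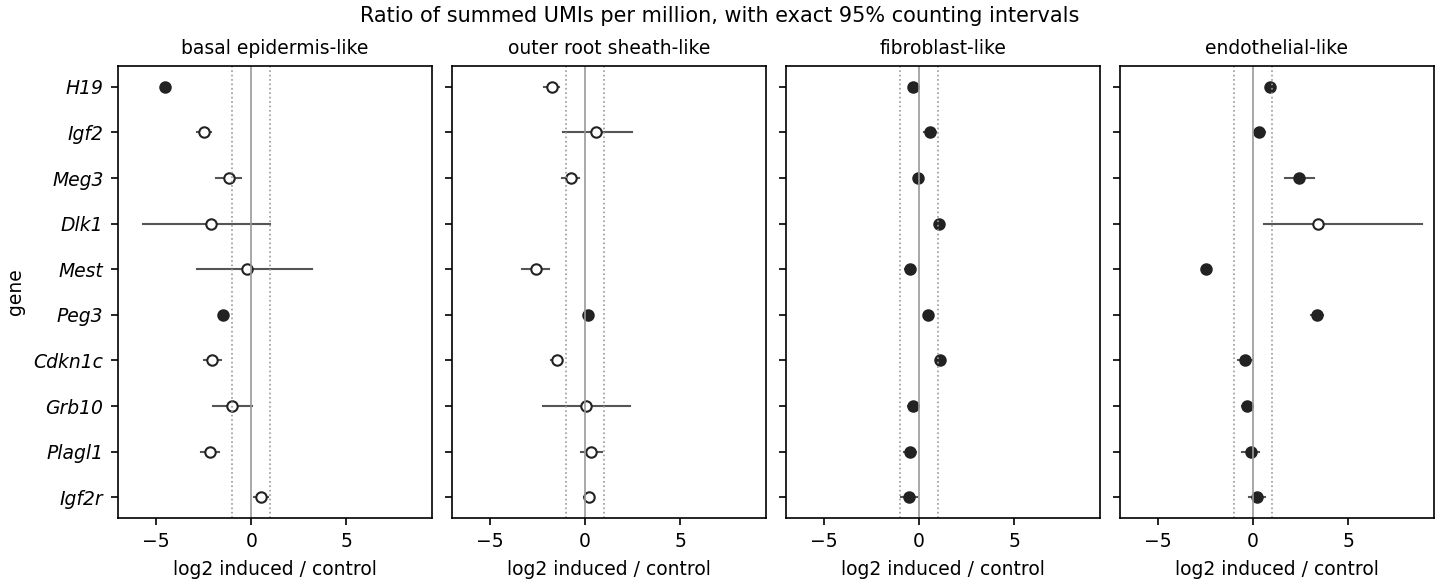
Log2 ratio of induced over control CPM for the 10 genes in 4 classes, with exact 95% conditional intervals as bars. Filled points have a mean of at least 20 CPM, open points are below it, dotted lines mark 2-fold, and genes with 0 UMIs in a library have no point. H19 and Peg3 are the filled points left of the line in basal epidermis, while Mest lies far left and Peg3 far right in endothelial cells.

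Fibroblasts, the cells of the dermis that make collagen, were the class in which all 10 members reached 20 CPM. Of these 10, 2 were higher in the induced library and none lower, against 4.93% higher and 2.71% lower among 6243 genes. The median log2 ratio was -0.17 for the 10 members and 0.00 for all genes at level. Dlk1, a Notch-related inhibitor of fat cell formation, stood at 110.6 CPM (575 UMIs, 531 cells) in the control and 231.3 CPM (474 UMIs, 307 cells) in the induced library. Cdkn1c stood at 226.7 CPM (214 to 240) and 492.9 CPM (463 to 524.3), 2.17-fold higher (1.997 to 2.37).

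A second fibroblast cluster decided part of this. It held 77 induced and 3 control cells, and Lpl and Cfd were among its leading genes. Over all fibroblasts the 7 adipocyte markers summed to 213.8 CPM in the control, with 4 of 7 detected and Adipoq at 0, and to 3280 CPM in the induced library, with 6 of 7 detected and Lep at 0. In that cluster Dlk1 stood at 632 CPM, Igf2 at 155 CPM, H19 at 322 CPM, Cdkn1c at 759.9 CPM and Peg3 at 1499 CPM. Each was above its level in the main fibroblast cluster of either library. The fibroblast markers themselves summed to 71965 and 37029 CPM, and the part of either marker list in the member values was not tested.

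Without that cluster, 528 control and 230 induced cells remained, and the picture of the fibroblasts was another one. Dlk1 was then lower in the induced library, 109.7 against 39 CPM (567 and 54 UMIs), with a log2 ratio of -1.38 after 5 CPM were added in place of 1.03. H19 was lower too, 204 against 90.3 CPM (1054 and 125 UMIs, log2 -1.13). Igf2 had 45.1 and 25.3 CPM, Plagl1 78.4 and 41.9 CPM, and Grb10, an adaptor that restrains insulin and IGF receptors, 120.9 and 78.7 CPM. Cdkn1c, at 222.7 and 364.7 CPM, was still higher in the induced library but under 2-fold (log2 0.70), and Peg3 had 807.9 and 918.7 CPM. Meg3, at 2764 and 2781 CPM from 14281 and 3850 UMIs, did not differ beyond counting error. The ratios of Meg3, Mest and Igf2r moved least when that cluster was left out. Over all fibroblasts, however, the log2 ratio of Mest was -0.43 with 5 CPM added and 0.12 under a stricter cell filter.

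**Figure D5:**
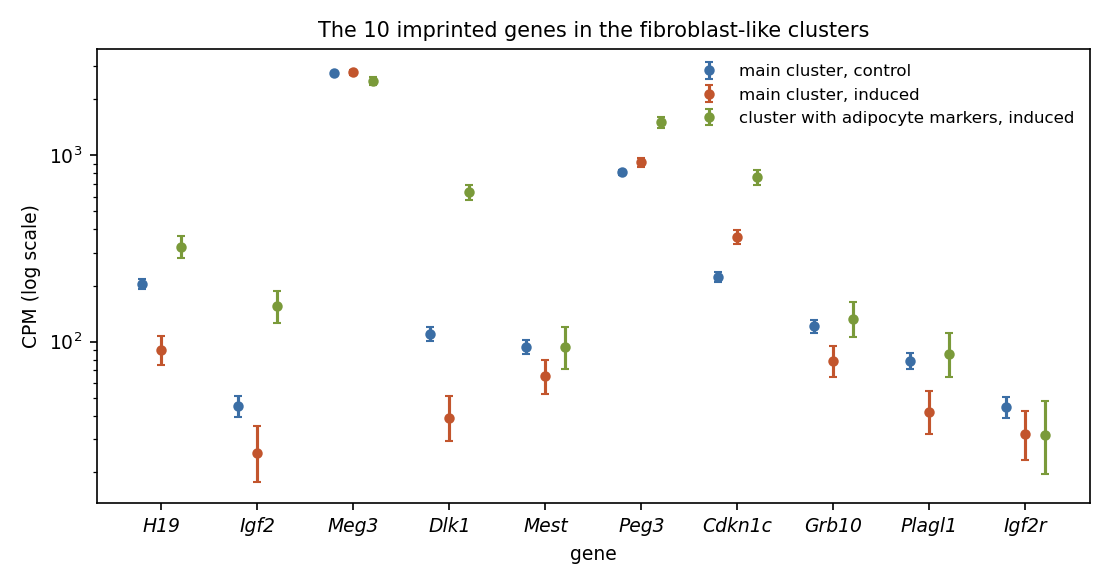
Level (CPM, log scale) of the 10 genes in the main fibroblast cluster of the control library (528 cells) and of the induced library (230 cells), and in the induced fibroblast cluster that carries adipocyte markers (77 cells). Bars are exact 95% Poisson intervals. Dlk1 has 109.7, 39 and 632 CPM in these groups, so its direction depends on whether the last is counted with the fibroblasts, while Meg3 is close in all 3.

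Single fibroblasts differed in whether they carried H19, and several members went with it. At 2000 UMIs per cell, an H19 UMI was found in 24.9% of the 526 fibroblasts of the control and in 14.2% of the 274 of the induced library. In the control library the 131 cells with H19 held Igf2 at 95.4 CPM (61.8 to 140.9) and the 395 without it at 31.6 CPM (20.5 to 46.7). Dlk1 stood at 209.9 and 74.7 CPM, Plagl1 at 137.4 and 60.8 CPM, Cdkn1c at 377.9 and 172.2 CPM, Peg3 at 1134 and 745.6 CPM, and Meg3 at 4061 and 2738 CPM. The intervals of these 6 genes did not overlap between the cells with H19 and those without. Mest (87.8 and 91.1 CPM), Grb10 (129.8 and 122.8 CPM) and Igf2r (68.7 and 53.2 CPM) showed no such gap.

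The induced fibroblasts had the same 6 genes at higher levels in the cells with H19. In 39 cells with H19 and 235 without it, Igf2 stood at 217.9 and 36.2 CPM, Dlk1 at 923.1 and 85.1 CPM, Plagl1 at 166.7 and 38.3 CPM, and Meg3 at 4769 and 2619 CPM. Cdkn1c stood at 641 and 402.1 CPM and Peg3 at 1500 and 1081 CPM. Before thinning, the 5 induced fibroblasts with most UMIs of a gene held 39.45% for Dlk1, 41.3% for Igf2, 20.3% for Cdkn1c and 9.92% for Peg3. Of the induced fibroblasts, those of the cluster with adipocyte markers had the higher H19 level, 322 against 90.3 CPM, and the part of that cluster in these values was not tested. These are cells of 1 library each, not replicates, and a cell's H19 UMI is a draw at this depth. Control basal cells had Igf2 in the same relation, 22 UMIs in 316 cells with H19 and none in 150 cells without (0 to 12.3 CPM).

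Endothelial cells formed 1 cluster of 60 control and 68 induced cells with 6 of the 7 endothelial markers raised. Here 9 members reached 20 CPM, 1 was lower and 2 were higher, against 7.77% lower and 5.0% higher among 6345 genes. Mest stood at 1494 CPM (1420 to 1572, 1513 UMIs) in the control and 269 CPM (235.5 to 306.1, 231 UMIs) in the induced library, 5.55-fold lower (4.83 to 6.41). Peg3 went from 99.75 CPM (101 UMIs) to 1035 CPM (889 UMIs), 10.4-fold higher (8.44 to 12.9). The median cell moved likewise, from 1318 to 167.9 CPM for Mest and from 0 to 475.1 CPM for Peg3.

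After thinning, 77.6% of 58 control endothelial cells had a Mest UMI (64.7 to 87.5) and 31.7% of 63 induced ones did (20.6 to 44.7). For Peg3 the shares were 13.8% (6.15 to 25.4) and 55.6% (42.5 to 68.1). Melanocytes, the comparison class for free RNA, had no Mest UMI in 80 control and 235 induced thinned cells, where 3 cells with a UMI would have been 3.75% and 1.28%. They had a Peg3 UMI in 1.25% and 2.98%. Leaving out the 5 cells with the most UMIs of a gene in each library left Mest at 1252 and 187.8 CPM and Peg3 at 48.9 and 746.2 CPM. Both differences stayed without those cells.

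Meg3 is the other member counted as higher, from 18.8 CPM (19 UMIs) to 100.2 CPM (86 UMIs), but it sat in a few cells. Without the top 5 cells of each library it had 0 and 1.42 CPM. Dlk1 had 1 and 9 UMIs, all in at most 5 cells. H19 was 1.86-fold higher (1.62 to 2.13), under the 2-fold level, with 5 cells holding 48.5% and 49.2% of its UMIs. Igf2 (216.3 and 274.9 CPM), Grb10 (285.4 and 232.9 CPM), Cdkn1c (161 and 122.3 CPM), Plagl1 (96.8 and 89.7 CPM) and Igf2r (99.75 and 116.5 CPM) differed by less than 1.5-fold.

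The endothelial class was not alike in the 2 libraries in other genes. The 7 endothelial markers summed to 4320 and 5646 CPM, and Lyve1, a marker of lymphatic vessels, had 0.988 and 216.6 CPM. The 7 adipocyte markers, of which endothelium itself makes Fabp4 and Lpl, summed to 2412 CPM with 2 detected in the control and to 14475 CPM with 3 detected in the induced library. Without the cells that had a Lyve1 UMI, the log2 ratio was -2.65 for Mest and 3.42 for Peg3, as large as with them. The part of the other differences was not tested.

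Other dermal classes were small, and their values are levels only. Pericytes and smooth muscle cells, 52 control and 46 induced, had Meg3 at 1825 and 3603 CPM, Dlk1 at 290.1 and 211.9 CPM, and Mest at 54.6 and 4.08 CPM (38 and 1 UMIs). They had Cdkn1c at 80.4 and 285.3 CPM, Igf2r at 114.9 and 97.8 CPM, Grb10 at 79.0 and 40.8 CPM, and 0 and 12 UMIs of Igf2. Dermal papilla cells had Meg3 at 2273 and 3460 CPM, Peg3 at 69.2 and 304.6 CPM (18 and 64 UMIs), and Mest at 88.5 and 4.76 CPM (23 and 1 UMIs). Cdkn1c stood at 192.3 and 242.8 CPM there, Plagl1 at 100 and 66.6 CPM, and Grb10 at 76.9 and 57.1 CPM. Schwann cells, which ensheathe nerves, had the highest Cdkn1c level of any class, 1759 CPM in 30 control and 903.5 CPM in 17 induced cells, and Mest at 148.7 and 63.4 CPM. Mest was thus lower in the induced library in the endothelial, pericyte, papilla and Schwann classes. Over all non-epithelial cells it went from 238.3 CPM (2167 UMIs) to 69.2 CPM (393 UMIs), 3.44-fold lower (3.09 to 3.84). Endothelial cells held 1513 of these control UMIs, so the pooled value rests largely on them. In fibroblasts Mest stood at 101.7 and 74.2 CPM, 1.37-fold lower (1.14 to 1.65).

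In melanocytes, the pigment cells, Grb10, Plagl1 and Igf2r reached 20 CPM in 80 control and 238 induced cells, and none of the 3 was lower or higher, against 1.80% and 2.16% of 6068 genes. Grb10 had 90.4 and 87.6 CPM, Igf2r 47.2 and 47.7 CPM, and Plagl1 32.1 and 24.1 CPM. All 3 intervals of the ratio include 1. H19, Igf2, Meg3, Dlk1 and Mest had 6 UMIs or fewer in either library. In 24 control and 13 induced immune cells each member had 5 UMIs or fewer. Sebaceous gland cells, 147 in the control and 3 in the induced library, had Peg3 at 33.6 CPM and H19 at 7.32 CPM in the control, and the 3 induced cells are too few for a value.

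Other genes listed as imprinted in the mouse are given for comparison, and whether each is imprinted in skin was not measured. Of 59 further ones in the matrices, 13 reached 20 CPM in basal cells. None of the 13 passed 2-fold in either direction with 5 CPM added. Of all genes, 3.32% were lower and 2.07% higher, so a count of 0 is near the background. The median log2 ratio of the 13 was -0.25, and that of all genes at level 0.03. Phlda2, a growth-restraining gene of the same imprinted domain as Cdkn1c, had 28.4 and 13.3 CPM. Its log2 ratio was -1.09 (-1.33 to -0.84) without added CPM, past 2-fold, and -0.86 with 5 CPM added. Dhcr7, which encodes an enzyme of cholesterol synthesis, had 33.8 and 22.0 CPM, and Mcts2 18.7 and 35.2 CPM. In spinous cells 1 of 13 was lower, against 4.48% of all genes, the tetraspanin gene Cd81, with 109.8 and 44.9 CPM. In fibroblasts 1 of 16 was lower, against 2.71%, Nnat, with 49.8 and 3.904 CPM, and Rian, the noncoding RNA beside Meg3, had 231 and 152.8 CPM. In endothelial cells 2 of 16 were lower, against 7.77%, Commd1 (145.2 and 66.4 CPM) and Ndn (34.6 and 11.7 CPM). Nnat and Ndn reached the level only through the control library.

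Of 8 genes that act with IGF2, 4 reached the level in basal cells and 2 were higher, against 2.07% of all genes. Igf1r, the receptor through which IGF2 signals, had 35.8 CPM in the control and 85.0 CPM in the induced library. Igf2bp2, an RNA-binding protein of the IGF2 messenger, had 10.75 and 48.6 CPM, while Igf2bp3 had 57.2 and 44.6 CPM. The outer root sheath had the same 2 genes higher among 4, against 2.82%, Igf1r at 55.2 and 151.7 CPM and Igf2bp2 at 14.3 and 50.7 CPM. In fibroblasts 3 of 6 were higher, against 4.93%, Igf1r (37.3 and 145.9 CPM), Irs2 (6.54 and 45.4 CPM) and Igf2bp2 (13.3 and 31.7 CPM). In endothelial cells 1 of 3 was, against 5.0%, Insr (37.5 and 104.8 CPM), and in melanocytes none of 3.

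Fetal growth genes that let-7 microRNAs restrain were a list of 9 that shares 3 genes with the last. In basal cells 4 were at level and 1 was higher, Igf2bp2 again, against 2.07% of all genes. Hmga1, a chromatin protein gene of that list, had 30.6 and 58.7 CPM. In the outer root sheath 2 of 5 were higher, against 2.82%, Igf2bp2 and Hmga2, the latter at 8.35 and 56.4 CPM. Igf2bp2 and Hmga2 too reached the level only through the induced library, so nothing is read from the counts of this list. Among nuclear-retained RNAs in basal cells, Neat1 was lower by just over 2-fold (2167 and 1072 CPM) and Malat1 was not (12940 and 10503 CPM). In fibroblasts Neat1 went the other way, from 321.7 to 1119 CPM.

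The genes whose level followed H19 most closely were Igf2 (Pearson r of 0.74), Ly6a (0.71), Sema3f (0.71), Als2cl (0.69) and Tppp (0.65). These are correlations of log2 levels over 38 clusters by library, among 11273 genes, and the points share libraries and depth. Over the 15 control epithelial clusters alone the closest were Ly6a (0.94), Calml4 (0.94), Igf2 (0.92), Gna14 (0.92) and Agrp (0.91). Over the 14 induced epithelial clusters they were Ehd4 (0.91), Ltb4r1 (0.90), Myof (0.87), Scgb2b27 (0.87) and Map2k3 (0.86), and neither Igf2 nor any other of the control genes was among these.

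Igf2 was closest to Ly6c1 (0.93), Slco2b1 (0.88) and Hspa12b (0.88), and Dlk1 to Serping1 (0.96), Adamts12 (0.95) and Emilin2 (0.94). Meg3 was closest to its neighbour Rian (0.98), Ddr2 (0.97) and Col6a2 (0.96). Among the members, Meg3 and Dlk1 had an r of 0.87 and Meg3 and Cdkn1c one of 0.83, whereas H19 and Meg3 had 0.18 and H19 and Igf2r 0.16. After Igf2, the members nearest to H19 were Plagl1 (0.48), Mest (0.42) and Peg3 (0.37).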

How the data were processed

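The deposited values are raw UMI counts per gene and barcode, and the barcodes carry no cell type annotation. Alignment and counting used Cell Ranger 6.0.0 with mm10, per the submitters' processing notes. Barcodes were kept with at least 1000 UMIs, at least 500 genes and under 15% mitochondrial UMIs. The automatic Scrublet threshold marked 3 control and 1 induced cells and was not usable, so 341 control and 357 induced barcodes, the top 7% by score, were removed as doublets. The control library held 100409201 UMIs and the induced one 119705137 UMIs before filtering, and 3983 and 4124 epithelial cells after it. Both libraries were clustered together with scanpy 1.11.5 and igraph 0.11.9 (10000 UMIs per cell, 2000 variable genes, 30 principal components, 15 neighbours, Leiden resolution 1.0). Clusters whose keratins summed to over 3000 CPM were clustered again as epithelial cells.

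A cluster took a class name from 18 marker lists if at least 3 markers were raised 1.5-fold in the library with most of its cells, with 20 CPM added, and detected in 25% of cells. The naming thresholds were chosen with the data in view. The members and the gene lists were chosen with earlier results of these data known. UMIs were summed over the cells of a class in a library and scaled to CPM, with 95% intervals from the exact Poisson distribution. Ratios have exact conditional binomial intervals and shares of cells Clopper-Pearson intervals, and PCR or cell sampling is not covered. Calls and ratios were made for classes with at least 50 cells in each library, and values in other classes are levels only. For shares each cell was thinned to 2000 UMIs, leaving out 58 control and 356 induced cells. Levels of 3′ counts are compared between classes and libraries, not between genes.

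All members were computed in every class, and in the small classes the text gives those with most UMIs. Of each further list, up to 3 genes in each direction with a mean of at least 20 CPM are named by the size of their ratio, and genes named as markers or leading genes were chosen after their values were seen. The genes most like H19, Igf2, Dlk1 and Meg3 are named by r. Positions and transcripts are from GENCODE release M21 on GRCm38, which held 32158 of the 32285 genes, and microRNAs from RefSeq on GRCm38.p6. Intervals were computed with scipy 1.17.1 under Python 3.11.15, tables with pandas 2.3.3 and numpy 2.4.6, principal components with scikit-learn 1.9.0 and plots with matplotlib 3.10.9. The ratios were tested on simulated data.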

Additional observations from a re-analysis of the deposited data

Results flagged for a closer look

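Peg3 differed between the libraries in opposite directions in 2 classes. In the upper follicle its log2 ratio of induced over control, with 5 CPM added, was -1.36, and in endothelial cells it was 3.31. Each class has 1 library per group, so whether Peg3 differs in its response between them was not tested.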

How the results depend on the processing

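No paired analysis was possible because each group has 1 library. The log2 ratio of H19 in epidermal cells, -4.21 with 5 CPM added, kept its direction under all 13 alternatives. All 13 reuse the same 2 libraries and the difference the set was chosen by, so they describe the processing and support nothing further. The ratio was -4.30 with every cell given the same weight and -4.07 after thinning to 2000 UMIs. With doublets kept it was -4.10, and under the stricter cell filter -4.47. Library-centred clustering gave -4.29 and coarser clustering -4.31. A per-cell gate among epithelial cells, in place of the classes, gave -4.03. It was -4.36 with 1 CPM and -3.77 with 20 CPM added. Without the stress-gene basal cluster it was -4.46, and without the spinous clusters that carry Krt79 -4.38, both chosen after seeing the data. Over all epithelial cells H19 stood at -3.10, at -2.99 relative to the median gene and at -2.92 after thinning. Over all epithelial cells 1 member was lower, 2 at a level of 5 CPM and 2 at 1.5-fold. In basal cells 2 were lower, 5 at a level of 5 CPM and 1 at 4-fold. In fibroblasts 2 were higher and 0 at 4-fold. Of these other settings, a share of all genes is given only for 5 CPM in basal cells, 3.25%. The counts of lower members include H19, so nothing is read from these counts. The ratio of Dlk1 in fibroblasts turned from 1.03 to -1.38 without the cluster with adipocyte markers, an alternative added after seeing the data. Of 444 alternatives to log2 ratios, 360 moved by less than the counting interval, 83 by more and 1 reversed a call. Of 120 shares of cells, 94 moved by more than their interval when the depth was changed, so shares are given at a stated depth. Endothelial Mest ranged from -2.82 to -2.38 and Peg3 from 2.40 to 3.801 over 10 alternatives, of which those without Lyve1 cells or without the top 5 cells were added after seeing the data. In the outer root sheath, H19 ranged from -1.41 to -0.63 and Mest from -1.33 to -0.37, with the values nearest 0 without the cluster led by Nppc, also added after seeing the data. Depth limits the scarce members: a class total of 3 UMIs was 0.354 CPM in control basal cells but 11.5 CPM in control dermal papilla cells.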
